A study of Drosophila melanogaster with 15 samples.

Results

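The 5 arrays described here read the transcripts of whole male Drosophila melanogaster that had met no ethanol, and they are the control arrays in a series of 15. The members were chosen by title alone: every array titled control was taken, and no measured value entered the choice. Each control array read 1 pool of 30 males of the isogenic Canton-S B background, 3 to 5 days old, made by freezing 15 flies from each of 2 groups on dry ice. The other 10 arrays come from males of the same background and age, 5 pools after a 1st exposure to ethanol vapor in the inebriometer, a column that measures loss of postural control, and 5 pools after a 2nd exposure that followed 2 h of recovery. They are used below only to ask whether the genes that vary between control pools also vary there, and whether the brightest and the most variable genes differ after ethanol. The values stand for 1 isogenic strain, 1 sex and 1 age class, and the spread between pools is that between groups of like flies.

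A whole adult male is a mixture of tissues whose transcripts differ by orders of magnitude. Thoracic muscle is packed with contractile proteins and mitochondria, the midgut secretes digestive enzymes, and the fat body stores lipid and makes serum proteins. The accessory glands and ejaculatory duct and bulb make the proteins of the seminal fluid, the testis expresses a large set of genes used nowhere else, and the oenocytes under the cuticle make its hydrocarbons. Genes of a few neurons, or of other stages and of the female, are diluted in such a mixture or missing from it.

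The values are the Signal, a linear intensity that Microarray Suite 5.0 computes for each probe set from 14 pairs of perfect-match and mismatch oligonucleotides, with every array scaled to a trimmed mean of 500. Of 18952 probe sets, 183 hybridization controls were left out and 18769 remained, of which 13646 carried the name of 1 gene, 402 named several genes and 4721 had no name in the tables used here. The named ones fall in 11981 genes, and each gene is represented by its probe set of highest mean control Signal. Signal does not count molecules and is not divided by transcript length: in the 1094 genes with several probe sets, the brightest and the dimmest differed by a median of 5.73-fold. Among probe sets of at least 100 only, the median was 2.32-fold, in the 386 genes with several such probe sets. Signal therefore orders genes only coarsely. Where 5 values are given for a gene, they stand in the order of pools 1 to 5. In RNA from whole flies, fewer cells of a type and less RNA per cell cannot be told apart.

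The median Signal of the 5 control pools was 136 to 139, the share of probe sets under 20 was 23.8% to 26.2%, and pairs of pools correlated at r = 0.948 to 0.954 across the 18769 probe sets on the log2 scale, which describes these arrays, since probe sets are not replicates. The pools differed in other measures, and pool 5 stood furthest from the others. The SD of its deviations from the mean of the 5 pools was 0.20 (log2, 8706 genes with a mean control Signal of at least 100), against 0.14 to 0.17 in pools 1 to 4. The control probe set for the middle of 18S ribosomal RNA read 4306 in pool 2 and 333 in pool 3, and 1484 to 1715 in the others. The ratio of 3' to 5' probe sets, a sign of RNA integrity and labelling, was 3.42 to 4.37 for eIF4A and 5.87 and 6.23 for Act5C in pools 1 and 4 and 7.60 to 7.79 in pools 2, 3 and 5, and its part in the results was not tested. Outside the controls, array 5 of the 2nd exposure held female transcripts, against its male label. Most male markers there lay within the range of the other arrays of that exposure. The yolk protein Yp1 read 2521 there, against 1.1 to 16.3 in the control pools. The vitelline membrane protein Vm34Ca read 997, against 8.7 to 40.7. The summed Signal of 3 yolk proteins was 5851 on that array, 136 to 199 on the control arrays and 99.5 to 315 on the other exposed arrays. On the same array Ebp, of the male ejaculatory bulb, read 25643 (22736 to 26896 on the other 4 arrays of that exposure) and the testis gene Mst98Ca read 12799 (12687 to 14343). Mst87F, Mst84Db, ProtB, dj and Dup99B were lowest on that array, and each was also under every control pool. Mst87F read 8262.5 (9375.5 to 10624.6 on the other 4 arrays) and dj 325.3 (371 to 549.9). The other male markers examined lay within the range of those arrays. The main results that use the 2nd exposure are given with and without that array.

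The sex and stage of the control flies were read from marker genes. Of 17 eggshell proteins, which are made in the ovary, 12 were near background and none exceeded the 42.3 of Cp18. Yp1 read 1.3, 13.5, 4.4, 1.1 and 16.3, Yp2 6.7 to 54.3, and Yp3 128 ± 7.26 (Signal, mean ± SD, n = 5 pools). No control pool carried a yolk or eggshell level like that of the array described above. Of 11 larval glue, larval cuticle and larval serum proteins, 10 were near background, and the remaining one, Lcp65Ac, read 28.6. Larval serum protein 2 (Lsp2), which was placed in the fat body list instead, was intermediate at 367, and its values by pool are given below. The male markers were at the other end of the scale. Ebp, a protein of the mating plug from the ejaculatory bulb, read 23237, 23005, 25543, 25244 and 31734, and every control pool was at or above 23005.

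Near background, defined as a mean Signal under 20, were 4828 probe sets (25.7%). Another 5688 (30.3%) were low (20 to under 200), 6785 (36.2%) were intermediate (200 to under 2000) and 1468 (7.82%) were abundant (at least 2000). Among the 11981 named genes the counts were 1160, 3750, 5879 and 1192. The share of probe sets that name 1 gene was 36.7% near background and 83.8% to 90.6% in the intermediate and abundant classes. The total was not held by a few probe sets. The 10 brightest carried 1.83% of the summed mean Signal, the brightest 100 carried 14% and the brightest 1000 carried 55.7%. A Signal of 10000 was reached by 192 named genes. Only 33.3% of the genes with several probe sets kept all of them in 1 class, and the class of a gene depends on the probe set that represents it. The plot of list members sets 38 lists of genes on this scale.

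**Figure D1:**
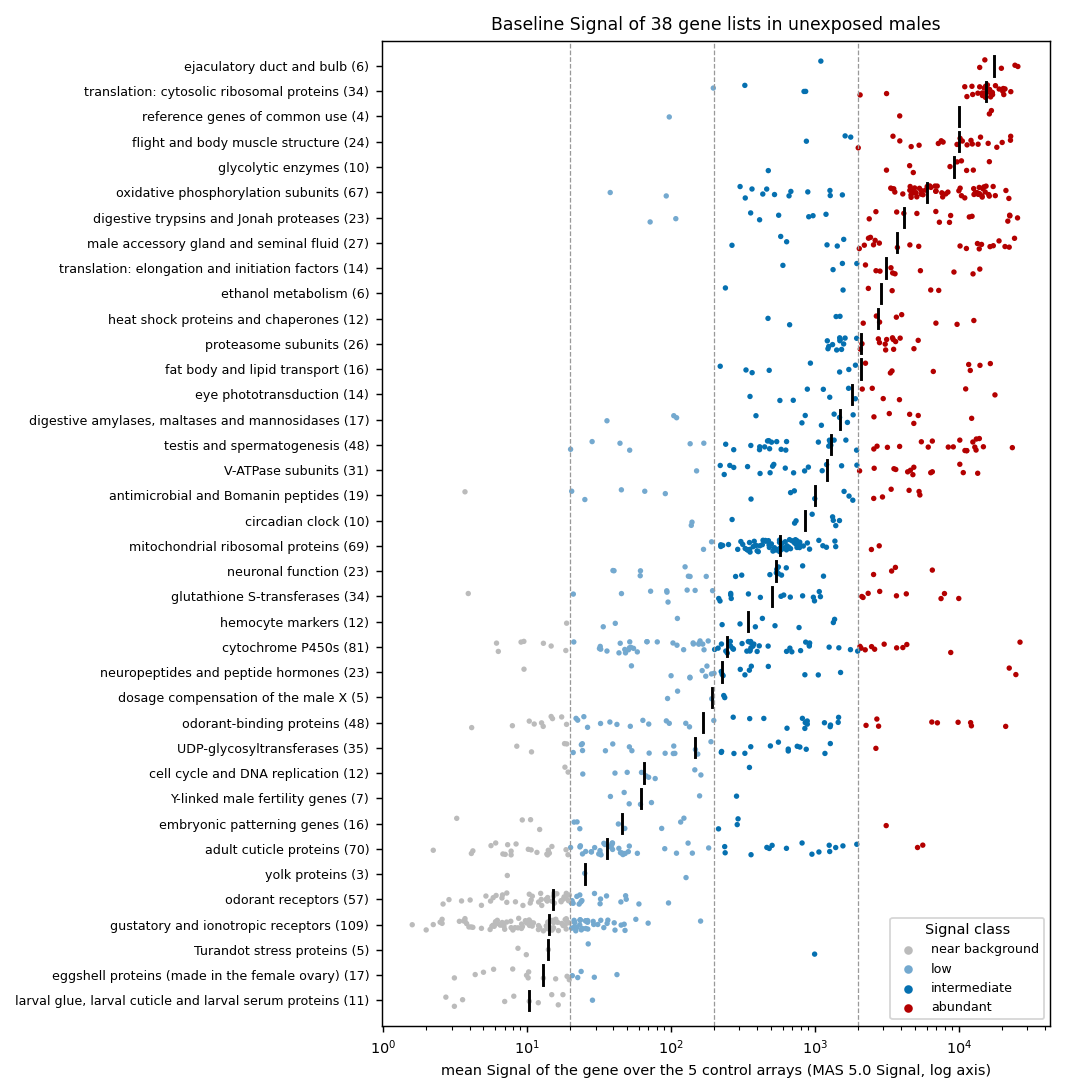
Mean Signal over the 5 control arrays (horizontal, log axis) of each measured gene in 38 lists (vertical, number measured in brackets), with a dot for each gene coloured by class, dashed lines at 20, 200 and 2000, and a black bar at the list median. Ducts, cytosolic ribosome, muscle and energy metabolism stand at the top, and odorant, gustatory, eggshell and larval genes at the bottom.

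The brightest named gene was sesB, the adenine nucleotide translocase that exchanges ADP for ATP across the inner mitochondrial membrane. Its Signal was 24509, 25494, 25952, 26363 and 32537, and pool 5 was above the rest. Cyp4g1, the oenocyte cytochrome P450 of cuticular hydrocarbon synthesis, followed with 26650 ± 2498. MtnA, a metallothionein that binds copper, had 26411 ± 2032. The 25 brightest genes spanned 21275 to 26971 and fell into a few groups of tissue and function. Mating plug and seminal fluid proteins were Ebp, EbpII (24587 ± 3581), Acp98AB (24411 ± 3734), Mst57Da (23575 ± 2669) and Acp53C14a (22421 ± 2749.9). Digestive enzymes were the trypsins alphaTry (25614 ± 949) and betaTry (22659.6 ± 1137), the serine proteases Jon65Aiv (22581 ± 1282) and Jon65Aiii (21929.8 ± 982), and CG12374 (22168 ± 2121), of the carboxypeptidase family. Muscle gave Act79B, an actin of the leg and thoracic muscles (22961 ± 5209.6), the calcium pump SERCA (22874 ± 3414) and the sarcoplasmic calcium-binding protein Scp1 (22385 ± 3479). Mitochondria gave, beside sesB, the complex I subunit ND-MLRQ (22300.4 ± 1264) and blw, the alpha subunit of ATP synthase (21275 ± 1653). Nplp3 (24942 ± 5106) and Nplp2 (22433 ± 1849), annotated as neuropeptide-like precursors, and the ribosomal protein RpL41 (23004 ± 2243) completed the genes of known product. CG18628 (25307), CG16826 (24794), whe (21599.8) and CG7203 (21543) are named only. Probe sets whose suffix marks probes shared among transcripts read 2 of the 25, sesB among them, and paralogues such as alphaTry and betaTry could share signal that these data do not separate.

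**Figure D2:**
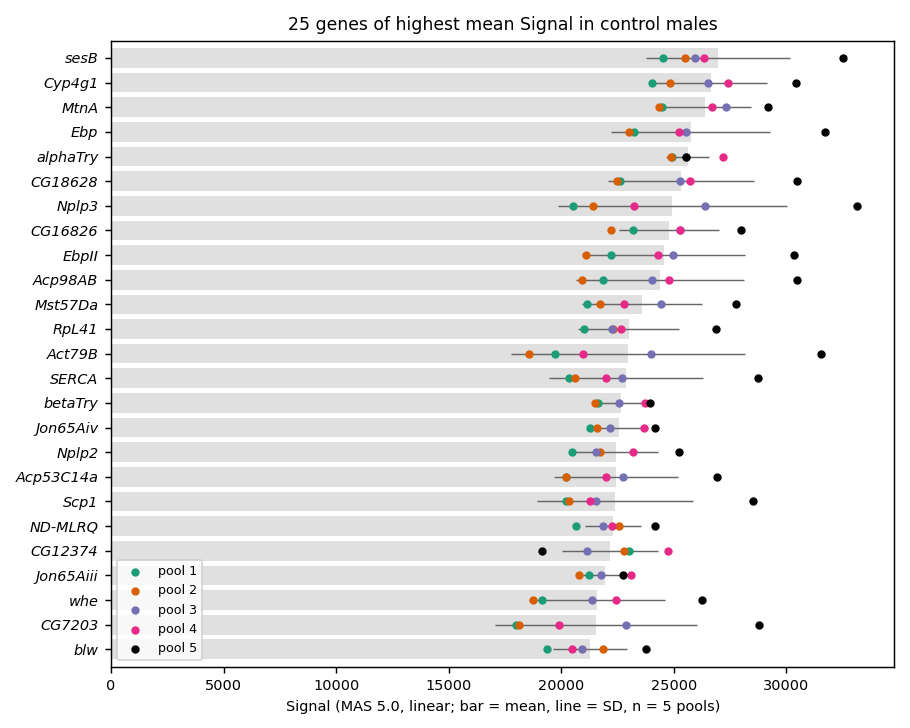
Signal of the 25 genes of highest mean control Signal (horizontal, linear from 0), with a coloured dot for each of 5 pools, a bar at the mean and a line of 1 SD. Pool 5 is the highest dot in 22 of the 25, from sesB at 32537 to blw at 23769, and alphaTry, CG12374 and Jon65Aiii are highest in pool 4.

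Pool 5 was the highest pool in 22 of these 25 genes, in 81 of the 100 brightest genes and in 23.7% of all 8706 genes with a mean of at least 100. After quantile normalization, which gives all arrays 1 distribution, it was highest in 30 of the 100. The 192 genes at 10000 or more lay 0.12 (log2) above their own mean in pool 5 and 0.08 below it in pool 1, whereas genes at 200 to 2000 lay within 0.01 of it in every pool. The order of the pools among the brightest genes therefore moves with the scaling, and the mean values do not: all 25 means moved by less than 1 SD under quantile normalization, under equalised array medians and with any control array left out.

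Genes of the male reproductive tract stood high in Signal. All 27 measured members of the accessory gland and seminal fluid list were intermediate (6) or abundant (21), with a median Signal of 3750. The 4 brightest were Acp98AB, Acp53C14a, Acp53Ea (20961 ± 2408) and Acp36DE (19049.6 ± 2998), a glycoprotein needed for sperm storage. The sex peptide SP, which lowers a mated female's receptivity, read 12383, 12463, 14246, 13278 and 15078 in pools 1 to 5. The ejaculatory duct and bulb list was the brightest of all 38, with a median of 17484 over 6 genes: EbpIII read 19782 ± 2014, the antibacterial peptide Anp (andropin) 15185 ± 2175, and Dup99B, a relative of the sex peptide, 13986 ± 2310.0. The SD of Ebp between pools was 0.19 (log2) and that of Acp36DE 0.23. Of 48 measured genes of testis and spermatogenesis, 20 were abundant, 22 intermediate and 6 low. Mst84Dc, of the sperm tail, read 14837 ± 1091 and the sperm-specific leucyl aminopeptidase S-Lap7 read 13253 ± 1027; Mst57Da and Mst57Dc (13909.6 ± 1523), though in that list by name, are known as accessory gland genes. The testis-specific beta-tubulin betaTub85D read 10158 to 12581 and the protamine ProtA 3097 to 3283. Y-linked genes of male fertility, several of them very long and expressed in spermatocytes, were dim: 6 of 7 were low, from 38.1 for kl-5 to 159 for ARY, and Pp1-Y2 read 286 ± 21.2.

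Chromosome arms differed in the share of bright genes. On the X, 6.58% of 1869 genes were abundant and the median Signal was 239.5, the lowest of the arms. The shares on 2L, 2R, 3L and 3R were 12%, 11.3%, 9.69% and 9.76%, with medians of 333, 317, 293 and 293. The fourth chromosome, with 65 genes, had 13.8% abundant and a median of 493. None of the 27 accessory gland genes and 2 of the 48 testis genes lie on the X, which holds 15.6% of the genes read. Of the complex that raises transcription of the single male X, mle read 237 ± 27, msl-2 233 ± 38.9, msl-3 192 ± 19.7 and msl-1 111 ± 13.3, all under the median of the named genes (292).

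Translation and energy metabolism also stood high. Cytosolic ribosomal proteins, of which 34 of 86 list names were matched to a probe set of 1 gene, were abundant in 30 of 34, with a median of 15358. RpL15 read 20968 ± 1906 and the stalk proteins RpLP1 and RpLP2 read 20563 ± 1609 and 20382 ± 1801, whereas RpS28a, a copy of RpS28b, read 197 ± 39.6. Among initiation and elongation factors 10 of 14 were abundant, led by the RNA helicase eIF4A (14011 ± 453). Of the ribosome of the mitochondrion, 65 of 69 mRp genes were intermediate, with a list median of 569. Respiratory chain and ATP synthase subunits were abundant in 53 of 67, with a median of 6038, and the ATP synthase subunits ATPsynC and ATPsynbeta read 17952 ± 1272 and 17344 ± 978. Of 10 glycolytic enzymes 9 were abundant, with Gapdh1 at 16323 ± 597, Eno at 12629 ± 644 and Tpi at 11344 ± 767. Muscle structure genes were abundant in 21 of 24: after Act79B and SERCA came the myofilament protein Mf (20037 ± 3676) and Argk1, the arginine kinase that buffers ATP (18388 ± 1977). Proteasome subunits stood in a narrow band, all 26 between 1222 and 5230.

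Detoxification genes spread over all classes, gut genes from low to abundant, and fat body genes over the intermediate and abundant classes. Of 23 trypsins and Jonah proteases 15 were abundant and 2 low. Sugar-cleaving enzymes were dimmer (6 of 17 abundant, median 1487), led by the maltase Mal-A1 (12297 ± 1619.5), and the proton pump of acid compartments, the V-ATPase, had Vha16-1 at 13545 ± 1024 and 17 of 31 subunits in the intermediate class. Fatty acid synthase FASN1 (16579 ± 543), the ferritin chains Fer1HCH (14046 ± 578) and Fer2LCH (12031 ± 563) and the lipophorin precursor apolpp (11729 ± 902) led the fat body list. Among 81 cytochrome P450s, 11 were abundant, 34 intermediate, 29 low and 7 near background, with Cyp6d5 (8801 ± 332) next after Cyp4g1. Cyp6g1, known for insecticide resistance, followed at 4360.3 ± 75.2. Glutathione S-transferases were led by GstD1 (10008 ± 498), with 9 of 34 abundant, and UDP-glycosyltransferases had 1 abundant gene of 35, Ugt35B1 (2659 ± 226). Of 19 antimicrobial genes 6 were abundant, led by Bomanins, short peptides of the Toll response: BomS2 read 4118, 5297, 3202, 3999 and 10243, and BomS6 5302 ± 750.4. Chaperones were intermediate (4) or abundant (8), with the constitutive Hsc70-4 at 12737 ± 552. Of 5 Turandot genes only TotC (550.4, 1499, 666, 523 and 1751) was above the low class.

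Genes of the eye and of neurons were readable in the whole fly, and those of chemoreceptors mostly were not. Arrestins of the photoreceptors were bright, Arr2 at 17851 ± 2419.9 and Arr1 at 11179 ± 1136, and the light-gated channels trpl and trp read 2989.7 ± 533 and 2138 ± 619; all 14 eye genes were intermediate or abundant. Of 23 genes of neuronal function 4 were abundant, 11 intermediate and 8 low: the sodium pump subunit nrv3 read 6556 ± 891, the GABA-synthesising enzyme Gad1 3633 ± 425, and the sodium channel para 133 ± 40. Neuropeptide genes other than Nplp2 and Nplp3 stood at or under the 1511 ± 151 of AstC. Of 10 clock genes 8 were intermediate, with tim at 1330.0 ± 103, the light sensor cry at 1345 ± 145 and Clk at 742 ± 79.8. Of 57 odorant receptors 40 were near background and 17 low, and the brightest was the coreceptor Orco (96.6, 89.6, 86.2, 105 and 105). Of 109 gustatory and ionotropic receptors 75 were near background and 34 low, with Gr32a brightest (161 ± 17.7). Odorant-binding proteins spanned every class, 10 near background and 9 of 48 abundant, with Obp56g at 21193 ± 2967 and Obp99c at 12251 ± 883.

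Genes tied to ethanol or named in the study for their response to it had control levels from background to the abundant class. Of 9 names in the ethanol metabolism list 6 were read. Adh (alcohol dehydrogenase), Aldh, Fas2, Pka-R2, Thor and fz2 were looked for but not matched to a probe set of 1 gene, and have no value here. Catalase (Cat) read 7263 ± 186, the acetyl-CoA synthase AcCoAS 6392 ± 537, and the aldehyde dehydrogenase Aldh-III 2357 ± 93.1. The sorbitol dehydrogenase Sodh1 read 3448 ± 349 and Sodh2 239.6 ± 10.7. Malic enzyme (Men) read 6138, 6391, 6354, 6421 and 6388, with an SD of 0.03 (log2) between pools. Pyruvate carboxylase (PCB) read 6909.8 ± 288 and pyruvate dehydrogenase kinase (Pdk) 2627 ± 128. Of genes studied for their part in ethanol responses, hang read 478 ± 26.2, the potassium channel slo 376 ± 38.1, neuropeptide F (NPF) 224 ± 29.6, the adenylyl cyclase rut 148 ± 17.1, the octopamine-synthesising enzyme Tbh 61.3 ± 10.3 and GABA-B-R1 57.6 ± 15. The peptide gene amn read 0.8, 1.9, 12, 7.5 and 25.6, under 20 in 4 of 5 pools. The study reports absent calls for amn and GABA-B-R1 and left both out of its analysis. The Signal classes used here are not detection calls. The highest and lowest control pools differed by 2.2-fold in GABA-B-R1 and by 2.4-fold in the odorant receptor Or67d (30.3, 12.6, 26.5, 28.5 and 22.8).

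Genes of other stages and of dividing cells marked the lower end. Among 16 embryonic patterning genes 4 were near background and 8 low. Only hry, known as hairy, was abundant (3135 ± 213), and prd (293 ± 44.4), odd (289 ± 30.4) and twi (215 ± 15.5) were intermediate. Of 12 genes of cell cycle and DNA replication 9 were low, 2 near background and 1 intermediate, CycB3 (352 ± 29.2), and the replication clamp PCNA read 147 ± 11.9. Hemocyte genes were few but readable, with Hml at 778 ± 65.8 and the collagen Col4a1, which the fat body also makes, at 1374 ± 129. Genes used as loading references read 16864 ± 1012 for RpL32, 16323 ± 597 for Gapdh1, 3891 ± 382 for betaTub56D and 97.6 ± 23.1 for Tbp, with SDs of 0.09, 0.05, 0.14 and 0.34 (log2).

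The 5 pools were alike for most genes. Over the 8706 named genes with a mean control Signal of at least 100, the median SD of log2(Signal) between pools was 0.13, which is a 1.09-fold step, and 95% of the genes were under 0.32. In 167 genes (1.92%) the highest pool was at least 2-fold above the lowest. That count was 73 without pool 5 and 124 to 150 without any other single pool. Spread shrank with Signal, from a median SD of 1.15 in probe sets near background to 0.33, 0.12 and 0.10 in the low, intermediate and abundant classes, as the plot of spread against Signal shows. The steadiest list was the proteasome, with a median SD of 0.06 over 26 genes: Rpn6 read 3955, 3927, 3944, 3987 and 3786. Cyp6g1 was as even (4240.1, 4439, 4401, 4347 and 4375).

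**Figure D3:**
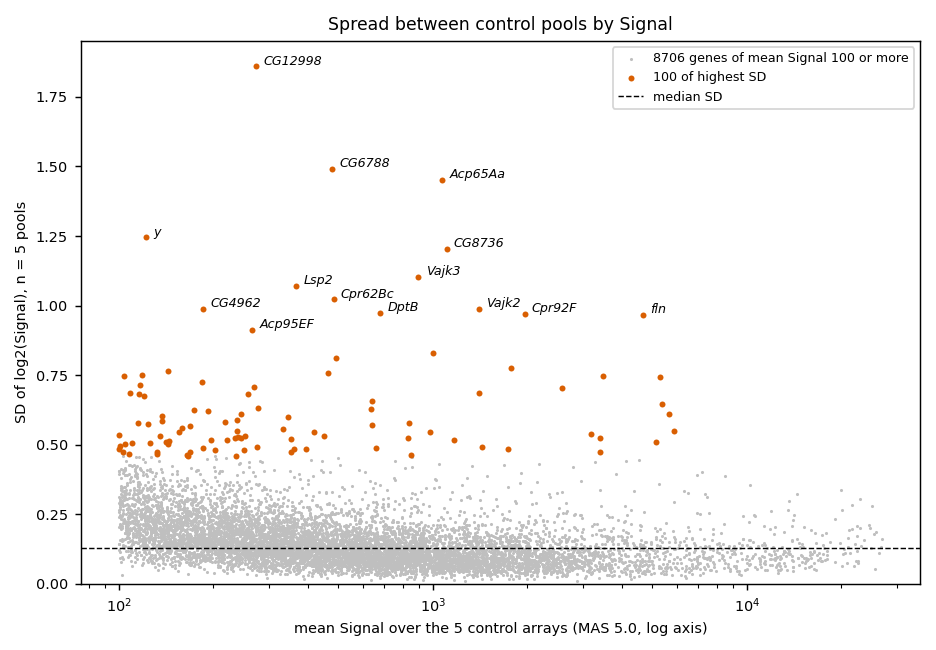
SD of log2(Signal) over the 5 control pools (vertical) against the mean control Signal (horizontal, log axis) for 8706 genes, with the 100 genes of highest SD in orange, the 14 highest named and the median of 0.13 dashed. Most genes lie under 0.32, and the genes far above them lie at Signals from just over 100 into the abundant class.

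Cuticle genes led the genes of highest spread, with 8 of the 100 of highest SD, and most were high in the same 2 pools. The cuticle is secreted by the epidermis and hardens and darkens after a fly ecloses. Acp65Aa, an adult cuticle protein, read 388, 357, 1961, 296 and 2342 (SD 1.45 on the log2 scale). Cpr92F, a chitin-binding cuticle protein, read 1006, 954, 2763, 1046 and 4026. Cpr62Bc read 259.6, 226, 643, 227 and 1059, and Cpr97Ea 117, 109, 267, 119 and 306. yellow (y), needed for dark pigment in the cuticle, read 66.1, 40.2, 236, 45.3 and 224. In each of these genes pools 3 and 5 stood above the other 3 pools with no overlap. Vajk3 (418, 444, 1214, 371 and 2050) and Vajk2 (731, 666, 1717, 732 and 3144) followed the same pattern. CG12998 had the largest SD of the 8706 genes (1.86) and read 98.7, 29.3, 494, 93.5 and 653. CG6788 (169, 119, 758, 164 and 1182) and CG8736 (552, 409.6, 1820, 425 and 2319), like CG12998 named only, had the same 2 pools on top. CG4962 (72, 138, 235, 93.9 and 389) and exp (66.6, 85.9, 156, 72.1 and 202), known in tracheal tubes, were also highest in pools 5 and 3. Among these 25 genes 2 had a second probe set: that of Vajk2 read 191, 189, 419, 215 and 749, and that of exp was near background (2.4, 1.2, 1, 3.6 and 2.8) and had no such order. Lsp2, a storage protein of the larval fat body, was highest in pool 3 (149.8, 314, 840.2, 139 and 394).

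**Figure D4:**
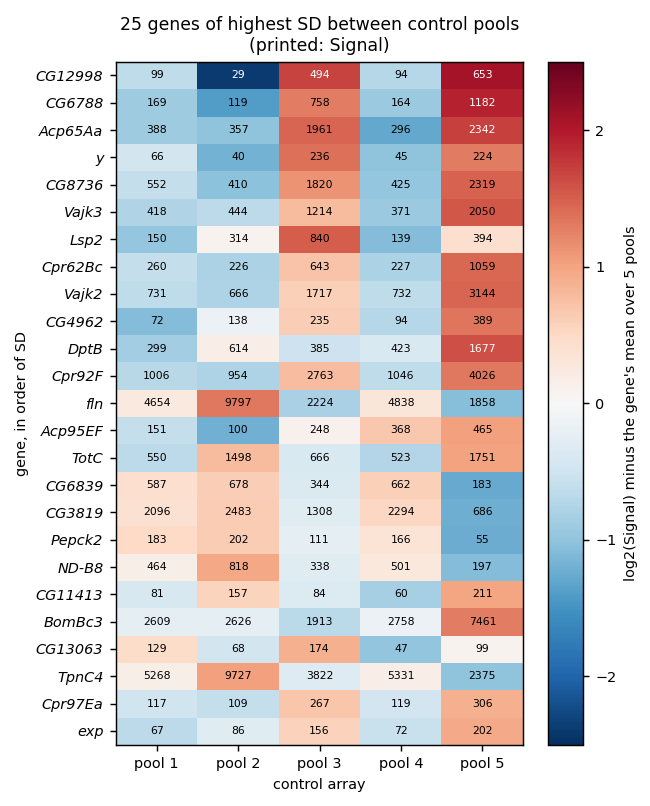
The 25 genes of highest SD between control pools (vertical, in order of SD) in each of 5 pools (horizontal), coloured by log2(Signal) minus the mean of the gene over the pools, with the Signal printed in each cell. Most of the upper rows are red in pools 3 and 5, while fln, TpnC4, ND-B8 and Pepck2 are blue in pool 5.

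In 13 of the 25 genes of highest SD, pools 3 and 5 were the 2 highest, as they were in 37 of the 100 genes of highest SD and in 15% of all 8706 genes. Of 70 adult cuticle genes 21 had a mean of at least 100, all 21 had an SD above the median of all genes, and 13 of the 21 had pools 3 and 5 on top. Their mean deviation was 0.26 in pool 3 and 0.44 in pool 5 (log2), against -0.28, -0.18 and -0.24 in pools 1, 2 and 4. Bright cuticle genes took part as well: Cpr49Ae read 3535, 4592, 7090.4, 3658 and 9265. Also with pools 3 and 5 on top were some genes of chitin metabolism among the 100 of highest SD. They were picked out after their values were seen and not from a list. The chitin synthase kkv read 92.1, 97.7, 179, 96.9 and 219. verm, a chitin deacetylase, read 185, 181, 351, 152 and 473, and the chitinase Cht7 read 128, 123, 185, 96.8 and 259.9. Cda4, of the chitin deacetylase family, read 83.2, 106, 157, 61.1 and 195. Scaling did not alter the pattern, with 13 of 21 again after quantile normalization and after equalised medians. Without pool 5 the SD of Vajk2 was 0.64 in place of 0.99 and that of Cpr62Bc 0.73 in place of 1.02, while that of CG12998 was 1.68, that of Acp65Aa 1.26 and that of y 1.17. The age of the flies within the 3 to 5 days of a pool is not given per pool, and its part was not tested.

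Of the 24 muscle genes 21 were highest in pool 5, or 20 under either other scaling, and the mean deviation of the list there was 0.14 (log2). The remaining 3, all of the indirect flight muscle, had another order. fln (flightin), of the thick filament in the indirect flight muscle, read 4654, 9797, 2224, 4838 and 1858, and TpnC4, a troponin C of the same muscle, 5268, 9727, 3822, 5331 and 2375: both were highest in pool 2 and lowest in pools 5 and 3. Act88F, the actin of that muscle, named after its values were seen, was highest in the same pool (6903, 10966, 5913, 7034 and 5262). ND-B8, a complex I subunit, read 464, 818, 338, 501 and 197, in the same order. Pepck2 (183, 202, 111, 166 and 55.4) and 2 genes that are named only, CG6839 (587, 678, 344, 662 and 183) and CG3819 (2097, 2483, 1308, 2294 and 686), were lowest in pool 5 too. Without pool 5 the SD of Pepck2 was 0.38 in place of 0.76 and that of CG3819 0.41 in place of 0.77.

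Immune peptides also spread widely, and the antimicrobial and Bomanin list gave 6 of the 100 genes of highest SD. BomBc3, a Bomanin outside that list, was also among the 100. DptB, diptericin B, of the Imd response, read 299, 614, 385, 423 and 1677, and BomBc3, a Bomanin, 2609, 2626, 1913, 2758 and 7461. Pool 5 stood above the other 4 in both, and without it their SDs were 0.43 and 0.24 in place of 0.97 and 0.75. The median SD of the 13 list members with a mean of at least 100 was 0.45. Of these, 8 were highest in pool 5 and the other 5 in pool 2, and 9 were lowest in pool 3. Mtk (metchnikowin) read 1918, 2583, 1461, 1779.8 and 5100.3 and Drs (drosomycin) 2802, 3119.6, 2256, 2896 and 5892. Def, of the same list and named after its values were seen, was lowest in pool 5 (426, 467, 252, 429 and 229.9). TotC, a stress peptide of the hemolymph, was high in pools 2 and 5. Acp95EF (151, 99.5, 248, 368 and 465) was the one gene of the 27 in the accessory gland list with over 2-fold range. Sfp65A, a seminal fluid protein outside that list, named after its values were seen, read 48.3, 105, 137, 163 and 125. CG11413 (80.6, 157, 84.1, 60.2 and 211) and CG13063 (129, 67.8, 174, 47.2 and 99.3) had means just over the limit of 100.

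Odorant-binding proteins, secreted carriers found in sense organs and in other tissues, gave 4 of the 100 genes of highest SD, and 3 of the 4 were highest in pool 5, where the mean deviation of the 26 list members was 0.17 (log2). Obp99b read 441, 605, 1113, 411 and 637, highest in pool 3, and Obp83g 105, 116, 96.6, 116 and 242, highest in pool 5. Obp56e read 825, 868, 1311, 917 and 1919, with pools 5 and 3 on top. Obp28a read 374, 297, 211, 372 and 512, highest in pool 5 and lowest in pool 3. Digestive genes with a large spread were low in pool 5: the protease Jon25Bii read 6058, 6457, 4015, 6195 and 2883 and the alpha-mannosidase LManIV 123, 146, 99.7, 98.7 and 57.7. Of neuronal genes, para read 138, 79, 106, 164 and 176 and the synaptic vesicle protein nSyb 306, 168, 249, 309.5 and 377, both lowest in pool 2 and highest in pool 5. Among P450s, Cyp4ac2 had the largest SD (0.50) and read 138, 163, 80.8, 98.1 and 71.7.

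Smaller shifts were shared by whole lists, as the plot of lists by pool shows. Eye genes were highest in pool 5 in 13 of 14, with a mean deviation of 0.32 there and -0.06 to -0.13 elsewhere: trp read 2013, 1728, 1941, 1782 and 3225 and Arr2 16221, 16125, 17293, 17594 and 22023. Neuronal genes were highest in pool 5 in 14 of 19, against 23.7% of all genes. Pool 2 carried more Signal of mitochondria and less of the male tract. It was highest in 45 of 65 genes of oxidative phosphorylation and 39 of 69 of the mitochondrial ribosome (23.4% of all genes), and lowest in 24 of 27 accessory gland genes (24.6% of all genes): Acp76A read 9632, 6775, 11034, 10509 and 13128. Sugar-cleaving enzymes were lowest in pool 5 in 12 of 16, among them Mal-A6 (5919, 6390, 4826, 5612 and 3420.1), against 24.9% of all genes. Members of a list share their arrays, so these are counts over 5 arrays and not repeated measurements. Under quantile normalization and equalised medians these counts stayed within 1.5 times. Ribosomal proteins did not, highest in pool 5 in 28 of 34 as deposited and in 6 after quantile normalization, nor did the ejaculatory duct and bulb list, lowest in pool 2 in 5 of 6 as deposited and in 3 with equalised medians. Clock genes had a mean deviation of -0.02 to 0.01 over the pools. That is a mean over the list, and single members varied more: 6 of the 10 had an SD above the median of all genes.

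**Figure D5:**
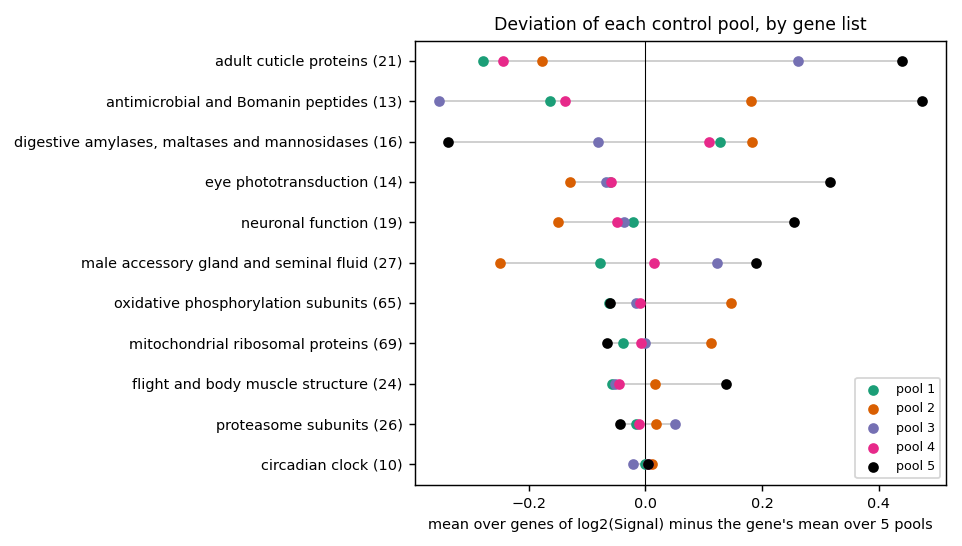
Mean over the genes of a list of log2(Signal) minus the gene's own mean over 5 pools (horizontal), for 11 lists (vertical, number of genes in brackets), with a coloured dot for each pool. Cuticle genes part into pools 3 and 5 on the right and pools 1, 2 and 4 on the left, eye and neuronal genes are set apart by pool 5 and accessory gland genes by pool 2, and proteasome and clock genes stay near 0.

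The genes that varied between control pools varied in exposed flies also, on arrays that had no part in choosing them, though the pools of a replicate were drawn from the same starting flies. Of the 100 genes with the highest control SD, 72 had an SD within the 1st and within the 2nd exposure that both lay in the upper 25% of the 8706 genes, and 12.5% of all those genes did so. The count was 70 without array 5 of the 2nd exposure (1043 of all 8706 genes). The median SD of the 100 was 0.56 in control flies, where it chose them, and 0.34 in the 1st and 0.36 in the 2nd exposure, against medians of 0.14 and 0.15 over all genes. Without array 5 of the 2nd exposure, the median for that exposure was 0.39 for the 100 and 0.15 for all genes. A 2-fold range within the 1st exposure was found in 39 of the 100 genes and in 1.67% of all genes. Within the 2nd exposure it was found in 41 of the 100 and in 1.73% of all, and without array 5 in 37 of the 100 and in 1.36% of all. Acp65Aa read 338, 396, 111, 351 and 327 in the 5 pools of the 1st exposure, none above 396. In the 2nd it read 537, 641, 336, 2400 and 593, where 1 pool lay far above the other 4. fln spanned 1166 to 11171 and 2114 to 17887. Across genes, Spearman's rho of the control SD with the SD in the 1st and in the 2nd exposure was 0.37 and 0.36 (8706 genes; 0.34 for the 2nd without its array 5), a description only, since genes share arrays and dim genes have high SDs on all of them.

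Whether the brightest and the most variable genes differ after ethanol was asked with limma on log2(Signal) over all 15 arrays and 13809 probe sets. None of the 100 brightest genes differed from control after either exposure at a Benjamini-Hochberg adjusted p of 0.05, when 0.362% of all tested probe sets did so for the 1st exposure and 3.63% for the 2nd. At an unadjusted p under 0.05 the counts were 6 and 3, and the methods' analysis of variance on linear Signal also gave 0 for both. The median absolute log2 fold change of the 100 was 0.07 and 0.04, against 0.10 and 0.12 over all probe sets tested. Their control means ran from 13883 to 26971, and the highest Signal on each array was 23281 to 33149. Whether the upper end of the scale limits fold changes there was not tested. Of the 100 most variable genes 4 differed in the 1st exposure and 3 in the 2nd, while 38 and 12 passed an unadjusted p of 0.05. Without array 5 of the 2nd exposure, 3 and 3 differed, beside 0.261% and 2.68% of all, and 35 and 12 passed an unadjusted p of 0.05. Of the 100 brightest genes none differed without that array either (limma, with 5 and 2 at an unadjusted p under 0.05), and their median absolute log2 fold change in the 2nd exposure was 0.04, against 0.11 over all. These genes were chosen on the control arrays that also enter the contrast, so their counts are not independent of the choice. The share of all tested probe sets at an unadjusted p under 0.05 is not given, so the unadjusted counts show no excess or lack.

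In the 3 genes called for both exposures, few exposed pools overlapped the controls. GstE4, of the glutathione S-transferases that conjugate toxins, read 410.4, 369.5, 158, 348 and 445 without ethanol. The 5 pools of the 1st exposure read 52.8 to 96.3 and those of the 2nd 61.8 to 162: the 1st exposure did not overlap the controls, and 1 pool of the 2nd exceeded control pool 3 (log2 fold change -2.03, adjusted p = 0.0114, and -1.83, adjusted p = 0.00464, limma). Obp28a, an odorant-binding protein of the antenna, read 374, 297, 211, 372 and 512 without ethanol, 69.3 to 117 in the 1st exposure and 91.1 to 171 in the 2nd, with no overlap (log2 fold change -1.78, adjusted p = 0.00729, and -1.52, adjusted p = 0.00366, limma). Shrm, a regulator of actin, read 147, 102, 128, 103 and 237 without ethanol and 329 to 390 in the 1st exposure, with no overlap (log2 fold change 1.42, adjusted p = 0.0232, limma). After the 2nd it read 224 to 543, and its lowest pool lay under control pool 5 (log2 fold change 1.43, adjusted p = 0.00492, limma). Shrm has 3 probe sets, and its values and calls are those of the brightest only. CG13693, which is named only, read 319, 386, 323, 283 and 660.3 without ethanol and 649 to 818 in the 1st exposure, where its lowest pool lay under control pool 5 (log2 fold change 0.99, adjusted p = 0.0493, limma). In the 2nd exposure it read 719, 641, 566, 452 and 617, with 4 of 5 pools under control pool 5, and was not called. Without array 5 of the 2nd exposure it lost its call for the 1st exposure as well (adjusted p = 0.0708, limma). The other 3 genes kept both calls without that array: the adjusted p for the 1st exposure was 0.0175 for GstE4, 0.00744 for Obp28a and 0.0205 for Shrm (limma). The log2 fold change for the 2nd exposure was then -1.74 for GstE4 (adjusted p = 0.0155, limma), -1.43 for Obp28a (adjusted p = 0.0128, limma) and 1.29 for Shrm (adjusted p = 0.0147, limma). The count of 4 was 0 without control pool 3, 1 without control pool 5 and 2 without control pool 4 or array 1, 2, 3 or 4 of the 1st exposure, and that of 3 after the 2nd exposure was 2 without control pool 3 or 5. When a control pool was left out the 100 genes were chosen again, so these counts are not all over the same genes.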

How the data were processed

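RNA of 15 pools of Canton-S B males, 5 per treatment, was hybridized by the authors to Drosophila GeneChip 2.0 arrays. The deposited values are Signal intensity that the authors computed with Microarray Suite 5.0, linear and scaled on each array. Scaling fixes the trimmed mean of an array, which leaves out 2% of probe sets at each end. A pool with more of many transcripts inside that range therefore reads lower elsewhere. They were taken as deposited. The number of arrays limits the precision, and no read depth applies. No column of another sample was found. Gene names came from the platform annotation, updated through RefSeq; 103 names were not in the gene table.

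For each of 18769 probe sets the mean and SD over the 5 control arrays were computed, in classes at 20, 200 and 2000; spread was described on log2(Signal) for genes of mean 100 or more. The 25 genes of highest mean and of highest SD are named, with the 4 brightest and up to 2 most variable members of 38 lists and genes the study names; SP, betaTub85D, ProtA, Sfp65A, Rpn6, Clk, PCNA, Acp76A and the calls in the sets of 100 were named after their values were seen. The members and lists were chosen with earlier results of these data known. Calls used limma 3.58.1 in R 4.3.3 for probe sets whose Signal averaged 20 or more across the 15 arrays; treatments had a mean each, variances were moderated by empirical Bayes, and Benjamini-Hochberg adjustment ran over all of these probe sets. Alternatives were quantile normalization, equalised array medians, other filters, log2(Signal + 50), medians, mean over probe sets, replicate block, eBayes trend, the methods' analysis of variance, other measures of spread, and each array left out. The 2 other scalings of the counts by pool, and the spread, unadjusted counts and median fold changes without array 5 of the 2nd exposure, were chosen after seeing the data. The methods took all treatments of 1 replicate from 2 starting groups, but array numbers are not tied to them. Steps were tested on simulated data. Python 3.11.15 was used with numpy 2.4.6 and pandas 2.3.3, and figures were drawn by matplotlib 3.10.9.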

Additional observations from a re-analysis of the deposited data

Results flagged for a closer look

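In each group of 5 arrays the highest or lowest value was set against the other 4 by its gap over the whole range, with a limit of 0.71. Of 91 sets of 5 values, 17 passed. Sets were the 25 genes of highest mean, the 25 of highest SD, the lists by pool, and 6 female markers in control and 2nd exposure flies. Chance passes about 1 in 20 sets, a rate that does not apply to the genes chosen for their SD over these pools or to the markers chosen after they were seen to stand out.

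Of the 17, 8 were control pool 5. sesB stood at 32537 there against 24508.5 to 26363 in the other pools, RpL41 at 26860 against 21001 to 22636, SERCA at 28729 against 20330 to 22693 and Scp1 at 28523 against 20208 to 21549. DptB read 1677 against 299 to 614 and BomBc3 7461 against 1913 to 2758. Eye genes deviated by 0.316 (log2, mean of 14 genes) against -0.13 to -0.06 in the other pools, and odorant-binding proteins by 0.167 against -0.07 to -0.01. The 192 genes of mean Signal 10000 or more, which include the first 4 of these, lay 0.12 above their own mean in pool 5.

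alphaTry was highest in control pool 4, at 27209 against 24880 to 25553. Control pool 2 was apart in genes of oxidative phosphorylation (0.147, against -0.06 to -0.01 elsewhere) and in glycolytic enzymes (0.116, against -0.05 to -0.01).

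The remaining 6 were female markers on array 5 of the 2nd exposure. Yp1 read 2521 there against 5.7 to 72.9 on the other 4 arrays, Yp2 1670 against 2.3 to 94.8, Yp3 1661 against 72.3 to 147, Vm26Aa 485 against 10 to 33.5, Vm34Ca 997 against 4.5 to 72.9 and Vm32E 66.1 against 2.6 to 16.7. The chorion proteins Cp15, Cp16, Cp18, Cp19, Cp36 and Cp38 read 5.1 to 16.4 on that array, within or under their range on the control arrays.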

How the results depend on the processing

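The counts of probe sets in the 4 classes and the median SD between control pools moved little under every alternative run: near background ranged from 4715 to 4874, low from 5649 to 5813, intermediate from 6768 to 6800 and abundant from 1462 to 1473, and the median SD from 0.113 to 0.138. The count of 167 genes with a 2-fold range depended on the choices: it was 446 at a mean Signal of at least 50, 90 at 200, 85 on log2(Signal + 50), where the offset shrinks ratios of dim genes, and 345 with the mean log2(Signal) of all probe sets of a gene, which brings in dim probe sets. It was 73 to 150 with 1 control pool left out, lowest without pool 5. The number of brightest genes called was 0 after the 1st exposure under all 23 alternatives and 1 after the 2nd with quantile normalization, 0 under the other 22. Of the most variable genes, 0 to 3 were called after the 1st exposure with 1 array left out and 2 to 4 after the 2nd; after the 2nd the count was 6 at a mean Signal of at least 70, 6 on log2(Signal + 50), 7 with eBayes trend, 5 when the genes were chosen by coefficient of variation and 6 when chosen by SD above genes of like Signal. The count of genes with high spread in both exposed treatments stayed between 65 and 75. Other causes were not tested.

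With the replicate number as a block (replicate block), 0 and 0 of the brightest and 3 and 4 of the most variable genes were called after the 1st and 2nd exposure. Residual correlations were, for arrays that share a number, -0.07 to 0.10 and for the rest -0.16 to 0.14. The methods took the treatments of a replicate from the same starting groups. These correlations cannot show whether arrays of the same number come from the same replicate. Medians of the 38 lists moved by more than the spread between pools in 16 of 304 settings, 9 of them with the mean Signal of all probe sets. Signal under 20 limits what can be read of chemoreceptors, eggshell and larval genes: their values have no firm order.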
